A study of Mus musculus with 6 samples.

Results

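The genes that anchor basal keratinocytes to the basement membrane were examined in keratinocytes with and without iASPP, the protein encoded by *Ppp1r13l* that binds p53 family members. The rule took 9 genes by name from the table of counts: the hemidesmosome genes *Itga6*, *Itgb4*, *Col17a1*, *Dst* and *Plec*, the integrin genes *Itga3* and *Itgb1*, and the laminin-332 genes *Lama3* and *Lamb3*. These are 9 of the 55367 gene names in the table. All 9 were among the 14916 genes with enough reads to be tested.

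Primary keratinocytes were taken from newborn pups of a mixed background (C57BL/6 and 129/Sv) with the genotype Ppp1r13lflox/flox;Cre+ERT, which both conditions carried. The Cre-ERT allele was expressed from the Rosa26 locus, so recombination was not limited to keratinocytes. Cells were plated on collagen I in low-calcium medium, which holds keratinocytes in a basal-like state, and after 24 h the medium was replaced by medium with tamoxifen (iASPP KO, or KO) or without it (iASPP WT, or WT). Each of 3 batches of isolated cells was divided between the conditions, giving 3 iASPP-KO and 3 iASPP-WT libraries. The iASPP-WT cultures received no tamoxifen, so the drug and the deletion cannot be told apart, and the number of pups behind a batch is not given in the sources used here. RNA came from whole cultures, in which fewer cells of a type and less RNA per cell cannot be told apart.

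Hemidesmosomes fasten the basal layer of the epidermis to the sheet of matrix beneath it. Integrin α6β4 spans the membrane and binds laminin-332 outside the cell, collagen XVII spans the membrane beside it, and plectin and BPAG1 link the cytoplasmic side to keratin filaments made of K5 and K14. Integrin α3β1 binds the same laminin but joins the actin cytoskeleton at focal adhesions, and anchoring fibrils of collagen VII tie laminin-332 to the dermis. Inherited loss of most of these proteins is known to cause skin blistering.

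The study concerned AP1, a dimer of JUN and FOS proteins that binds the TRE-like site TGANTCA, so the promoters of the adhesion genes were searched for it. RefSeq promoter windows (GRCm38.p6, 250 bases before to 50 after a transcription start) were matched for 5 of the 9 genes (*Dst*, *Lamb3*, *Itgb1*, *Itga3* and *Col17a1*), in 8 windows. TGANTCA reads the same on each strand, and 1 of the 8 windows held it, the second *Itga3* window at chr11:95069149-95069448 on the minus strand, as TGAATCA with its first base 13 bases after the start. Among all 32851 promoter windows of the table, 7.81% held the motif. The 3 windows printed here, each read 5′ to 3′ on its gene's strand with a match in capitals, are the *Itga3* window with the match, a *Lamb3* window (chr1:193301744-193302043, plus strand) for the adhesion gene with the lowest estimate, and the *Col7a1* window (chr9:108953336-108953635, plus strand) for the one other basement membrane gene that passed the test. A match is a description of the letters only.
Itga3, second start: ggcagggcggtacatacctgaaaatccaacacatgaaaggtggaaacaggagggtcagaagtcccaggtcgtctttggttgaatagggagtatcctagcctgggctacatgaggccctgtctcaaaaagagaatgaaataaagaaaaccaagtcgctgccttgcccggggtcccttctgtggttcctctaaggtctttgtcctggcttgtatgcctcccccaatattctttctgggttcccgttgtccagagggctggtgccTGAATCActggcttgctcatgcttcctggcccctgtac
Lamb3: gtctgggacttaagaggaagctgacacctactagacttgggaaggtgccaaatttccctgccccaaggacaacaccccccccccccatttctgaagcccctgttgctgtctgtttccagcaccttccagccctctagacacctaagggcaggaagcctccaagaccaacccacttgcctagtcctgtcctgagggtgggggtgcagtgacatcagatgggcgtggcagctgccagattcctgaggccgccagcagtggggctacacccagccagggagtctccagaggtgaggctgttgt
Col7a1: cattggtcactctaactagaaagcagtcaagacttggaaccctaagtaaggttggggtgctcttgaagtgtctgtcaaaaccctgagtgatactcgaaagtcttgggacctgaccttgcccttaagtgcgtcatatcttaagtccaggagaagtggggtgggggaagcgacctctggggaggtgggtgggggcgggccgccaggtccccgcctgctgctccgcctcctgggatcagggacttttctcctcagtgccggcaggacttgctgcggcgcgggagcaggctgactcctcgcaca

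Library totals ran from 20202517 to 25157117 counts, and the 9 adhesion genes took 0.620% to 1.16% of the counts of a library. *Ppp1r13l* had 320, 395 and 139 counts in KO batches 1, 2 and 3, against 697, 1100 and 472 counts in their WT partners, a log2 fold change of −1.45 (SE 0.18, edgeR adjusted p = 0.0030). Libraries of batch 3 stood apart from those of the other batches: fibroblast markers summed to 710 (iASPP KO) and 936 (iASPP WT) counts per 1000000 reads (CPM) there against 82.2 to 106 elsewhere, and suprabasal differentiation markers to 1017 and 950 CPM against 2692 to 3800. Melanocyte markers instead set batch 2 apart, at 431 (iASPP KO) and 367 (iASPP WT) CPM against 894 to 1126 CPM in batches 1 and 3. The sum of the keratinocyte markers was near-constant, at 31806 to 36969 CPM, but single markers varied. *Dsp* had 6406 (iASPP KO) and 5802 (iASPP WT) CPM in batch 1 and 3127 and 2616 CPM in batch 3. Results for the adhesion genes are therefore given with all 3 batches and without batch 3.

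In cultured keratinocytes *Col17a1* had the highest level per exon length of the adhesion genes, at a mean of 481 CPM per kb over the 6 libraries (range 324 to 766). It was followed by *Itgb1*, the shared β1 chain, at 133 CPM per kb (109 to 172). The laminin chain genes *Lamb3* and *Lama3* came next, with 66.4 (52.0 to 94.0) and 57.4 (47.9 to 76.7) CPM per kb, then the α6β4 genes *Itgb4* and *Itga6* with 56.0 (44.7 to 78.8) and 51.8 (39.0 to 70.8) CPM per kb. The plakin genes *Dst* and *Plec* had 44.4 (35.9 to 58.8) and 39.8 (31.9 to 54.6) CPM per kb, and *Itga3* the lowest level, 24.6 (20.7 to 30.0) CPM per kb. By merged-exon length, only the steps from *Col17a1* to *Itgb1*, from *Itgb1* to *Lamb3* and from *Plec* to *Itga3* were larger than the ranges over libraries. Neighbours from *Lamb3* down to *Plec* overlapped. The length used for *Dst*, 41619 bases, merges the exons of all its isoforms, among them long ones of nerve and muscle, so its level per kb is understated where keratinocytes transcribe the shorter epithelial isoform. Merged exons also exceed the longest transcript for *Itga6* (9142 against 4310 bases) and *Lamb3* (6612 against 4867 bases). The order below *Col17a1* and the step below *Itgb1* therefore depend on the length used.

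**Figure D1:**
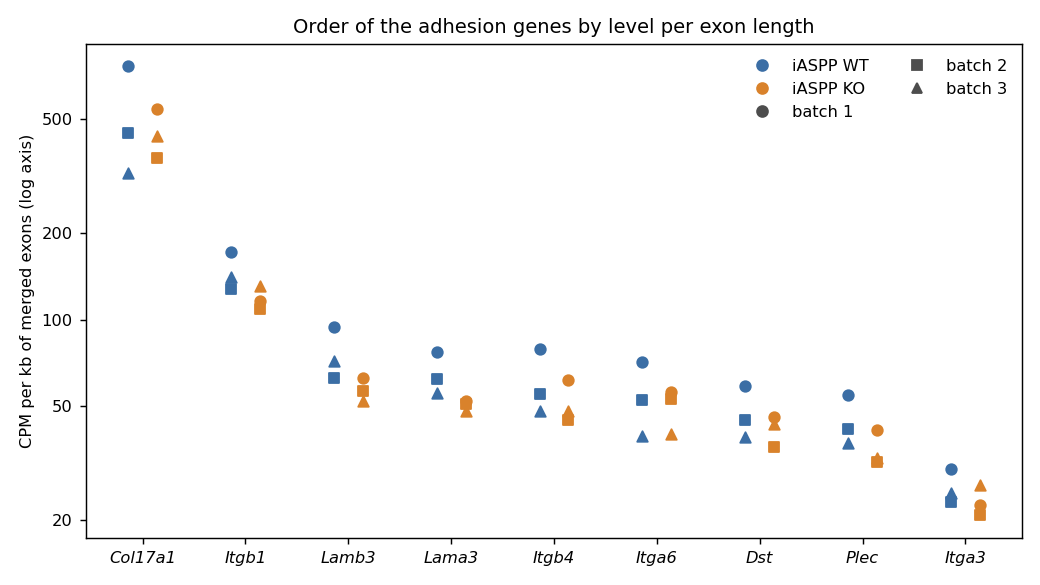
Level of each adhesion gene in CPM per kb of merged exons (log axis), with 1 point per library, blue for iASPP WT and orange for iASPP KO, and the marker shape giving the batch. *Col17a1* lies at 324 CPM per kb or more (rounded) in every library and *Itga3* at or below 30.0, while the genes from *Lamb3* to *Plec* share a band between 31.9 and 94.0.

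The comparison of iASPP KO with iASPP WT asked whether the anchoring machinery was transcribed differently after loss of iASPP. None of the 9 adhesion genes passed the test in either direction (edgeR quasi-likelihood with batch and condition, adjusted p of 0.110 to 0.801), against 4.12% of all tested genes (1.95% higher in WT cells, 2.17% higher in KO cells). At an unadjusted p under 0.05, 4 of the 9 were lower in iASPP KO (*Itgb1*, *Plec*, *Lama3* and *Lamb3*) and 0 were higher, against 8.09% and 8.66% of tested genes. The estimate was negative for 9 of 9, against 49.4% of tested genes, with a median log2 fold change of −0.22 against 0.0057. Suprabasal differentiation markers summed to 3800, 2982 and 1017 CPM in KO batches 1, 2 and 3 and to 3204, 2692 and 950 CPM in their WT partners, higher in KO cells in each batch. Of these 12 markers *Sbsn* (0.67, adjusted p = 0.0086), *Tgm1* (0.57, adjusted p = 0.029) and *Tgm3* (1.45, adjusted p = 0.043) were called higher in KO cells, and *Krt10* (−1.31, adjusted p = 0.033) and *Flg* (−0.89, adjusted p = 0.043) higher in WT cells. *Sbsn* took 1070, 1455 and 564 CPM of the KO sums and 631, 942 and 368 CPM of the WT sums. In batches 2 and 3 *Sbsn* differed by more than the sum did, so the higher sum there rested on *Sbsn*. *Krt1* was lower in KO cells in batches 1 and 2 (1110 and 365 against 1264 and 620 CPM), and 5 of the 12 estimates were negative. The part of differentiated cells in the adhesion gene estimates was not tested. The 95% intervals ran from −0.67 at the lowest bound to 0.24 at the highest, so a log2 fold change of 1 in either direction lay outside the interval of each of the 9. DESeq2 in place of edgeR called 1 of the 9, *Lamb3* (adjusted p = 0.035, against 3.31% of genes called in that direction), as did edgeR with genes of at least 1 count kept (adjusted p = 0.034, against 1.54%).

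**Figure D2:**
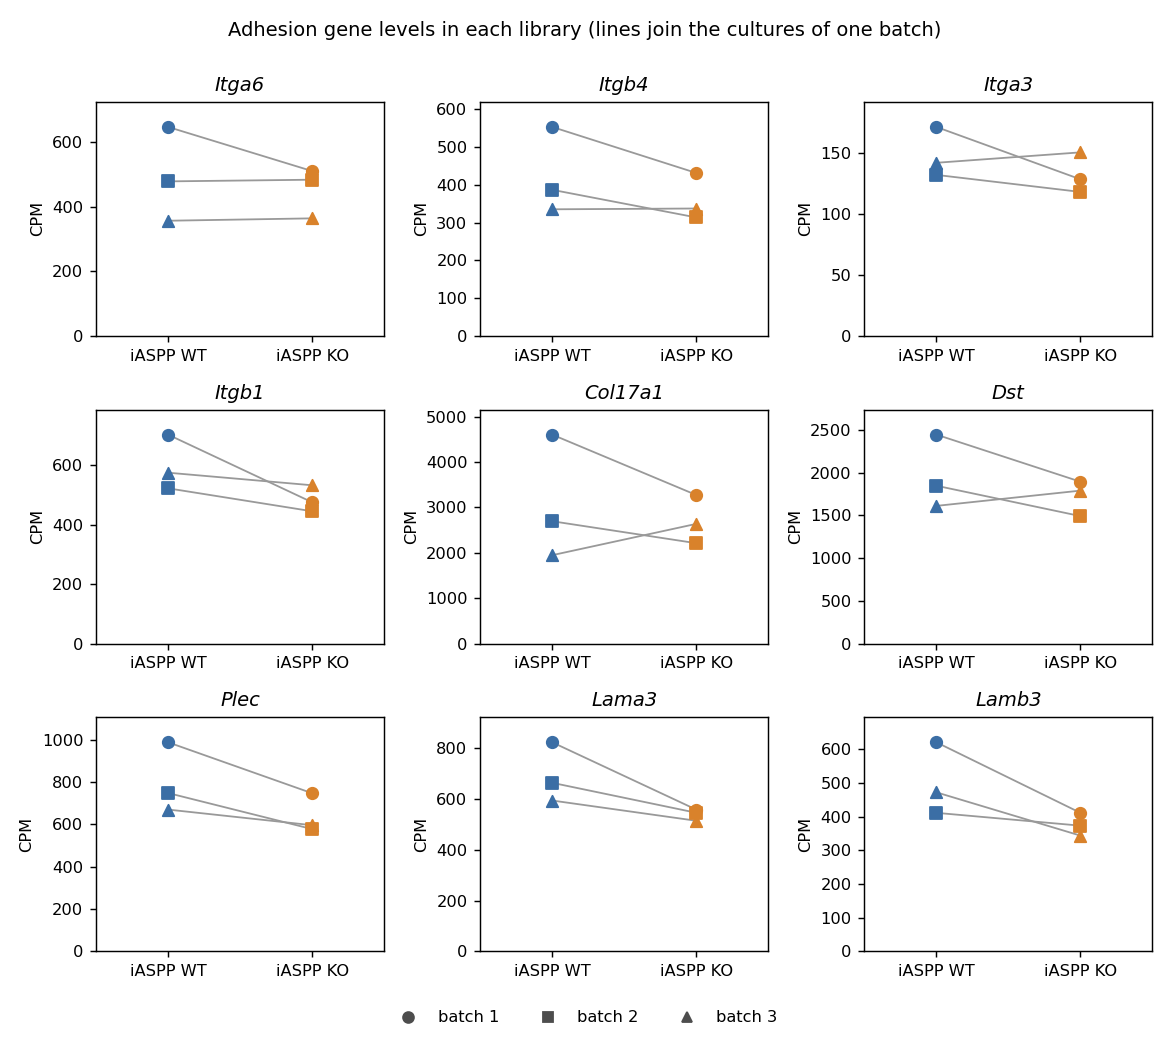
CPM of each adhesion gene in each library, with the iASPP-WT and iASPP-KO cultures of a batch joined by a line and batches told apart by marker shape. Lines fall from iASPP WT to iASPP KO for all 9 genes in batch 1, for 8 in batch 2 and for 4 in batch 3, and the *Lama3* panel is the one in which the conditions do not overlap.

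Of the hemidesmosome integrin, *Itga6* (α6 chain, chr2:71745616-71858416, plus strand) had 511, 484 and 364 CPM in the KO cultures of batches 1, 2 and 3 and 648, 479 and 357 CPM in the WT cultures. Levels differed more between batches than between conditions, and only the cultures of batch 1 stood apart from each other (log2 fold change −0.34, 0.016 and 0.030 in batches 1, 2 and 3). Its log2 fold change was −0.10 (SE 0.12, 95% interval −0.36 to 0.16, adjusted p = 0.756). *Itgb4* (β4 chain, chr11:115974709-116008412, plus strand) had 431, 313 and 337 CPM in the KO cultures and 553, 387 and 335 CPM in the WT cultures. Here batches 1 and 2 were lower in iASPP KO and batch 3 was level, and the conditions overlapped. The estimate was −0.22 (SE 0.12, interval −0.48 to 0.04, adjusted p = 0.40). Within a library the ratio of *Itga6* to *Itgb4* per merged-exon length was 0.909, 1.18 and 0.829 in iASPP KO and 0.899, 0.951 and 0.818 in iASPP WT, in overlapping ranges. The size of this ratio depends on the length used. Merged exons span 9142 bases for *Itga6* and 7015 for *Itgb4*, against 4310 and 6208 bases in their longest transcripts. The ratio is therefore no measure of the balance of the chains. Of the 42-base windows of the longest *Itga6* transcript, 6.68% also occur in the gene model *Gm29397*, so its counts are uncertain to that extent.

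*Col17a1* (collagen XVII or BP180, chr19:47646344-47692094, minus strand) was the most abundant adhesion gene and the most variable between batches. It had 3272, 2211 and 2636 CPM in the KO cultures and 4602, 2695 and 1947 CPM in the WT cultures, a 2.36-fold range over the iASPP-WT cultures alone. The direction differed between batches, lower in iASPP KO in batches 1 and 2 (−0.49 and −0.29 on the log2 scale) and higher in batch 3 (0.44). Over all batches the log2 fold change was −0.11 (SE 0.16, interval −0.47 to 0.24, adjusted p = 0.801), the widest interval of the 9.

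The plakins showed smaller spreads. *Dst* (BPAG1 or dystonin, chr1:33908225-34308661, plus strand) had 1894, 1492 and 1790 CPM in the KO cultures and 2446, 1848 and 1611 CPM in the WT cultures, lower in batches 1 and 2 and higher in batch 3, with an estimate of −0.18 (SE 0.13, adjusted p = 0.564). The counts cannot separate its isoforms. *Plec* (plectin, chr15:76170974-76232574, minus strand) had 748, 578 and 596 CPM in the KO cultures and 989, 749 and 670.2 CPM in the WT cultures. It was lower in iASPP KO in each batch (−0.40, −0.37 and −0.17), although the iASPP-KO culture of batch 1 overlapped the iASPP-WT range. Its log2 fold change was −0.32 (SE 0.11, interval −0.56 to −0.07, adjusted p = 0.167). The exons of *Plec* share 205 bases (1.13%) with *Parp10* on the same strand.

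Of the laminin-binding integrin of focal adhesions, *Itga3* (α3 chain, chr11:95044474-95076801, minus strand) had 128, 118 and 150 CPM in the KO cultures and 171, 132 and 142 CPM in the WT cultures, with an estimate of −0.16 (SE 0.13, adjusted p = 0.595) and a higher value in iASPP KO in batch 3. *Itgb1* (β1 chain, chr8:128685654-128733200, plus strand) had 475, 445 and 533 CPM in the KO cultures and 703, 522 and 575 CPM in the WT cultures. It was lower in iASPP KO in each batch (−0.56, −0.23 and −0.11), and the 2 conditions overlapped through the iASPP-KO culture of batch 3. The log2 fold change was −0.30 (SE 0.12, interval −0.57 to −0.03, adjusted p = 0.236). Within a library the ratio of *Itga3* to *Itgb1* per exon length was 0.193, 0.190 and 0.202 in iASPP KO and 0.174, 0.181 and 0.176 in iASPP WT. The ratio did not overlap between conditions, and with 3 libraries against 3 and 6 gene pairs examined it was given no test. β1 also pairs with other α chains.

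The laminin-332 chains had the lowest estimates of the 9. *Lama3* (α3 chain) had 559, 546 and 515 CPM in the KO cultures and 824, 664 and 595 CPM in the WT cultures, a mean of 539.8 ± 22.6 against 694 ± 118 (SD, n = 3). Every iASPP-KO library lay below every iASPP-WT library, which held for 1 of the 9 adhesion genes and for 5.46% of tested genes. Its log2 fold change was −0.35 (SE 0.11, interval −0.61 to −0.10, adjusted p = 0.142), with −0.56, −0.28 and −0.21 by batch. *Lamb3* (β3 chain, chr1:193207699-193343878, plus strand) had 412, 373 and 344 CPM in the KO cultures and 621, 412 and 473 CPM in the WT cultures. The iASPP-KO culture of batch 1 equalled the lowest iASPP-WT culture within 1 CPM, and all 3 batches were lower in iASPP KO (−0.59, −0.14 and −0.46). The estimate was −0.40 (SE 0.12, interval −0.67 to −0.13, adjusted p = 0.110), the lowest adjusted p of the 9. Per merged-exon length and within a library *Lama3* was 0.774 to 0.993 times *Lamb3*, in ranges that overlapped between conditions.

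**Figure D3:**
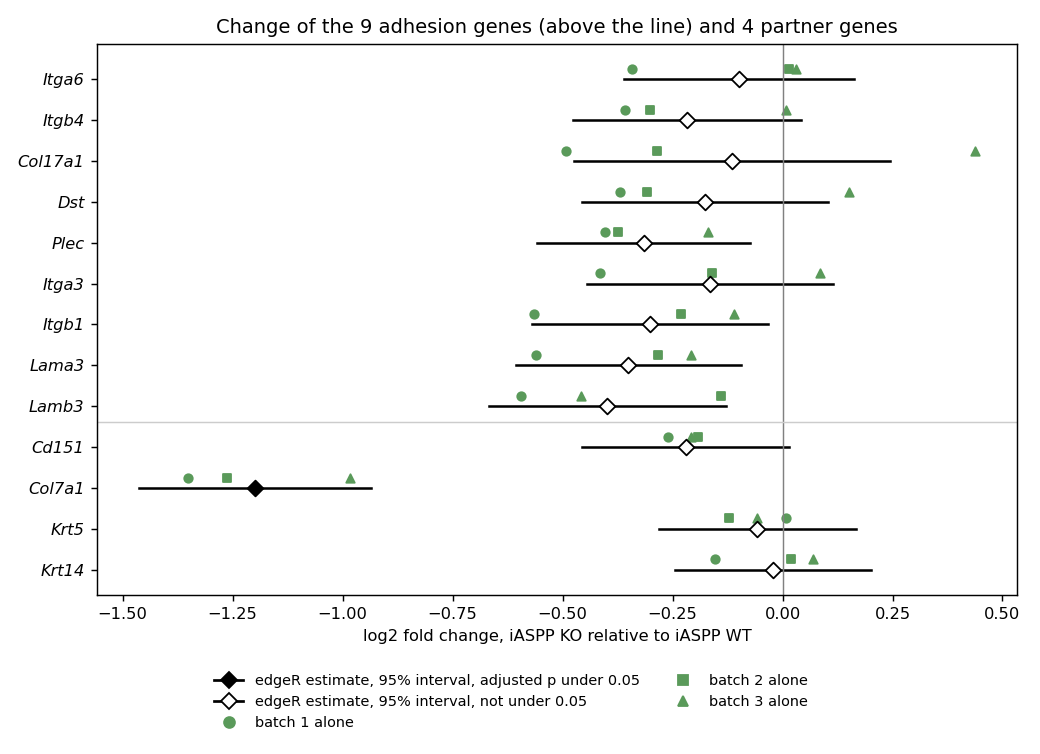
KO against WT on the log2 scale, with diamonds for the edgeR estimate, lines for its 95% interval, a filled diamond for an adjusted p under 0.05, and green symbols for each batch alone. All 9 adhesion genes lie between −0.40 and −0.10 with open diamonds, while *Col7a1* lies at −1.20 with a filled one.

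Levels and differences of the adhesion genes varied with the batch. In iASPP WT the highest level of 9 of 9 adhesion genes was in batch 1, and in iASPP KO of 7 of 9, with *Itga3* and *Itgb1* highest in batch 3. The share of all tested genes highest in batch 1 was not counted, so these counts cannot be called particular to the adhesion genes. The median log2 fold change of the 9 moved from −0.42 and −0.28 in batches 1 and 2 to 0.0090 in batch 3, and 9, 8 and 4 of them were lower in iASPP KO in these batches, against 50.5%, 50.3% and 49.7% of tested genes. Of the 9 genes, 4 were lower in iASPP KO in all 3 batches, against 19.7% of tested genes. They are the same 4 that had an unadjusted p under 0.05 on these same libraries, so this adds no separate support.

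With both cultures of batch 3 left out (4 libraries), 6 of the 9 passed the test as higher in WT keratinocytes, against 4.34% of the 15261 genes then tested, and 8 of 9 had an unadjusted p under 0.05 in that direction, against 9.45%. The 6 that passed were *Col17a1* (log2 fold change −0.39, adjusted p = 0.0053), *Lama3* (−0.42, adjusted p = 0.0069), *Itgb1* (−0.40, adjusted p = 0.014), *Plec* (−0.39, adjusted p = 0.014), *Dst* (−0.34, adjusted p = 0.029) and *Lamb3* (−0.37, adjusted p = 0.030). *Itgb4* (−0.33, adjusted p = 0.062), *Itga3* (−0.29, adjusted p = 0.159) and *Itga6* (−0.16, adjusted p = 0.521) did not pass. That fit rests on a single culture per condition in each remaining batch, so its p-values draw mainly on the spread estimated over all genes. With batch 1 left out, 0 of 9 passed, against 0.978% of the 15437 genes then tested called higher in WT cells, and 0 had an unadjusted p under 0.05, against 5.56% in that direction. In that fit 7 of 9 estimates stayed negative (median −0.14), and those of *Col17a1* (0.080) and *Itga6* (0.026) turned positive. With batch 2 left out, 0 of 9 passed (lowest edgeR adjusted p = 0.162), against 0.768% of the 15236 genes then tested called higher in WT cells. There 9 of 9 estimates were negative (median −0.17). Of these, 2 had an unadjusted p under 0.05, against 879 of the 15236 genes in that direction. Whether the effect of iASPP differs between batches was not tested, since each batch held a single culture per condition. The part of the fibroblast and suprabasal cells that set batch 3 apart was not tested.

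Among the partners of the hemidesmosome, *Cd151*, a tetraspanin that binds laminin-binding integrins, had 215, 195 and 203 CPM in the KO cultures and 258, 223 and 235 CPM in the WT cultures. Every iASPP-KO library lay below every iASPP-WT library, as for 5.46% of tested genes, and the estimate was −0.22 (SE 0.11, adjusted p = 0.337). The keratin genes at the far end of the plakin linkers had near-equal means in the conditions: *Krt5* had 5001 ± 616 CPM in the KO cultures and 5202 ± 637 in iASPP WT (log2 fold change −0.06, adjusted p = 0.842), and *Krt14* had 15913 ± 1445 and 16134 ± 1018 CPM (−0.02, adjusted p = 0.947; SD, n = 3).

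*Col7a1*, which encodes the collagen of anchoring fibrils, had the lowest adjusted p of the genes in the adhesion lists. It had 140.5, 73.0 and 201 CPM in the KO cultures and 359, 175 and 397 CPM in the WT cultures, so that each iASPP-KO culture lay below its own batch partner although the conditions overlapped across batches. It fell by 1.20 on the log2 scale in iASPP KO (SE 0.12, interval −1.46 to −0.94, adjusted p = 0.0011), with −1.35, −1.26 and −0.98 by batch. Fibroblasts also make collagen VII, and of the 11 fibroblast markers *Col1a2* (−0.55, adjusted p = 0.043) and *Col3a1* (−0.87, adjusted p = 0.027) were significantly higher in iASPP WT. In batches 1 and 2 the summed fibroblast markers were 82.2 and 106 CPM in the KO cultures and 89.2 and 95.4 CPM in the WT cultures. In the same batches *Col1a2* had 7.30 and 7.45 CPM in the KO cultures and 10.03 and 12.3 CPM in the WT cultures, and *Col3a1* had 4.14 and 4.22 CPM against 5.62 and 11.6 CPM. Over all batches 9 of the 11 fibroblast markers had negative estimates (median −0.38), and their part in the *Col7a1* difference was not tested.

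*Col7a1* was the only gene called among the 20 tested of 21 other basement membrane and anchoring genes, which had a median log2 fold change of −0.015 and 10 negative estimates. None of the 9 other laminin chain genes passed in either direction (median 0.015). Of the 16 other integrin subunit genes, 15 were tested, 1 passed as higher in KO cells and 0 as higher in WT cells (median −0.06). The one called was *Itgb7*, encoding the β7 chain best known on lymphocytes, with 23.9, 32.3 and 3.91 CPM in the KO cultures and 8.67, 18.4 and 1.38 CPM in the WT cultures. Each iASPP-KO culture exceeded its batch partner, and the log2 fold change was 1.23 (SE 0.22, adjusted p = 0.016, or 0.079 without batch 1). Leukocyte markers summed to 60.4, 68.0 and 22.8 CPM in the KO cultures and 40.6, 57.9 and 15.2 CPM in the WT cultures, with *Cd3e* at 0 in every library and *Csf1r* called higher in iASPP KO (1.11, adjusted p = 0.021). Their part in the *Itgb7* difference was not tested.

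Of the 28 linker and focal adhesion genes, all tested, 5 passed as higher in WT cells and 0 as higher in KO cells, against 1.95% and 2.17% of all tested genes, and 25 had negative estimates (median −0.26), against 49.4%. The 5 belong to the cytoplasmic side of integrin adhesions that join actin. *Zyx* (zyxin, a protein of tensed actin filaments at focal adhesions) had 45.3, 33.6 and 40.4 CPM in the KO cultures and 76.2, 65.1 and 66.5 CPM in the WT cultures, a log2 fold change of −0.81 (SE 0.13, adjusted p = 0.0084). *Rsu1*, whose product binds the ILK, PINCH and parvin complex, had 33.9, 24.1 and 36.4 CPM in the KO cultures and 63.7, 45.2 and 58.2 CPM in the WT cultures (−0.83, SE 0.13, adjusted p = 0.0095). For both genes every iASPP-KO library lay below every iASPP-WT library, against 5.46% of tested genes.

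*Ilk*, encoding integrin-linked kinase, a scaffold on β integrin tails, had 16.3, 15.4 and 19.9 CPM in the KO cultures and 33.0, 28.5 and 25.7 CPM in the WT cultures (−0.76, SE 0.18, adjusted p = 0.048). *Fblim1*, encoding migfilin, which binds filamin and kindlin, had 8.91, 2.87 and 8.20 CPM in the KO cultures and 17.7, 18.3 and 14.2 CPM in the WT cultures (−1.44, SE 0.34, adjusted p = 0.046). *Kank1*, encoding a talin-binding protein at the rim of focal adhesions and named here after its values were seen, had 67.1, 59.3 and 64.2 CPM in the KO cultures and 118, 78.7 and 89.5 CPM in the WT cultures (−0.57, SE 0.13, adjusted p = 0.035). Every iASPP-KO library lay below every iASPP-WT library for these 3 genes as well, against 5.46% of tested genes. The genes were picked by the test on these same libraries, so this adds no separate support. Without batch 2 all 5 lost the call, with adjusted p of 0.063 (*Rsu1*), 0.073 (*Zyx*), 0.112 (*Kank1*), 0.185 (*Fblim1*) and 0.237 (*Ilk*), in a fit that called 0.768% of 15236 genes as higher in WT cells. The log2 fold change of *Fblim1* was then −0.89 in place of −1.44. Without batch 1, *Ilk* (adjusted p = 0.260) and *Kank1* (adjusted p = 0.257) lost it.

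**Figure D4:**
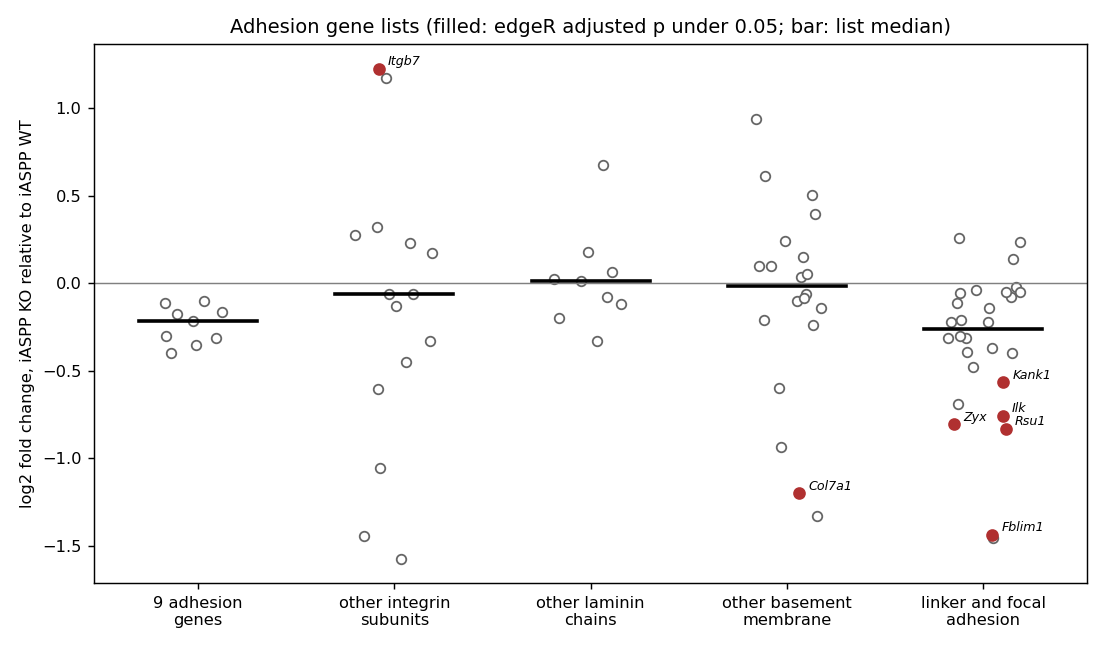
KO against WT on the log2 scale for the 9 adhesion genes and 4 wider lists, with 1 point per tested gene, filled where the edgeR adjusted p was under 0.05, and a bar at the list median. The adhesion genes form a narrow band around −0.22 with no filled point, the linker and focal adhesion list holds 5 filled points below 0, and the integrin and basement membrane lists hold 1 each.

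The genes whose pattern over the 6 libraries was most like that of the 3 adhesion genes with the lowest estimates were found by the root-mean-square difference of centred log2 CPM. *Znfx1* (0.065) and *Inka1* (0.072) lay nearest to *Lamb3*, *Chd6* (0.048) and *Helz* (0.052) to *Lama3*, and *Flrt3* (0.031) and *Dicer1* (0.057) to *Plec*. None of these 6 genes passed the test (adjusted p of 0.244 to 0.587).

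Counting error was a small part of the spread. The lowest count of an adhesion gene in a library was 2630 reads, a Poisson error of 1.95%, and the highest was 98220 reads, an error of 0.319%, while the median SE of the 9 log2 fold changes was 0.12 against 0.21 over all tested genes.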

How the data were processed

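Ribosomal RNA-depleted total RNA of 6 keratinocyte cultures was sequenced as single reads of 42 nt. The authors trimmed reads with cutadapt 2.10, aligned them to GRCm38 (mm10) with STAR 2.7.3 and deposited counts of reads per gene name from featureCounts 2.0.0, over exons and by strand (GENCODE annotation), without normalization. The deposited table of the authors' own comparison (mean levels, fold changes and p-values) was not used.

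The test across genes was the quasi-likelihood test of edgeR 4.0.16 (R 4.3.3) after filterByExpr and TMM, with batch and condition in the model, Benjamini-Hochberg adjustment over all 14916 genes and a threshold of 0.05. The SE is the absolute log2 fold change divided by the square root of F. CPM used TMM-scaled totals. For a single batch, log2 CPM values (prior count 2) were subtracted. Same-batch libraries are paired, since the labels give the batch and each batch was divided between conditions, and their deviations from the condition means correlated at 0.302, 0.368 and 0.568. The animals behind a batch are not given in the sources used here, so p-values refer to spread between cultures. In the fit to all 6 libraries each gene had 2 residual degrees of freedom, against 8.17 prior ones taken from all genes. Its p-values therefore also draw mainly on the spread estimated over all genes. No library was a copy of another (chi-square per gene of 39.7 or more within a condition). Totals of 20202517 to 25157117 counts put 3 counts at 0.119 to 0.148 CPM, and intervals cover no PCR duplication.

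Positions come from the count table. Overlapping exons were read from the exon coordinates of the count table, and shared 42-base windows from GENCODE vM21 transcripts on the same build. The adhesion genes and lists were chosen with earlier results of these data known. Named were the 9 genes, *Ppp1r13l*, up to 4 called genes a direction in each wider list, 5 partner genes (1 of them is not reported here), and the 2 genes nearest in pattern to the 3 largest estimates. Alternatives were DESeq2 1.42.0, other scalings, filters and dispersion, no replicate block, and each batch left out. The steps were tested on simulated data.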

Additional observations from a re-analysis of the deposited data

How the results depend on the processing

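With all 3 batches an estimate of −0.40 (*Lamb3*, SE 0.12) did not pass, with −0.59, −0.14 and −0.46 in batches 1, 2 and 3. Leaving out 1 batch gave 0 to 6 adhesion genes higher in iASPP WT, 117 to 662 genes higher in iASPP WT and 169 to 793 higher in iASPP KO, 0 to 1 other integrin and 0 to 1 other basement membrane genes higher in iASPP KO, and 1 to 4 basement membrane and 0 to 8 linker genes higher in iASPP WT. The estimates of *Col17a1* (−0.39 to 0.080), *Itga6* (−0.16 to 0.026) and *Krt14* (−0.068 to 0.048) changed sign when batch 1 was left out, none of them past the threshold there.

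Among 10 alternatives, *Lamb3* passed in 3, *Col17a1*, *Dst*, *Itgb1*, *Lama3* and *Plec* in 1 each (without batch 3), and *Itga6*, *Itgb4* and *Itga3* in 0, while *Col7a1* passed in 9. Without the replicate block, that is, with the pairing by batch ignored, edgeR called 0 genes in either direction (360 and 331 at an unadjusted p under 0.05), hence 0 other integrins, 0 basement membrane genes and 0 linker genes, and the lowest adjusted p of the adhesion genes was 0.973. Keeping every gene with at least 1 count gave 624 genes higher in KO cells and 491 in WT cells, 1 adhesion gene (*Lamb3*), 1 other integrin (*Itgb8*) and 3 basement membrane genes (*Col7a1*, *Hspg2*, *Fn1*) higher in iASPP WT, and 1 (*Col4a5*) higher in iASPP KO. DESeq2 called 1 adhesion gene (*Lamb3*), 1 other integrin (*Itgb8*) and 2 basement membrane genes higher in iASPP WT. The same 2, *Col7a1* and *Hspg2*, were called with DESeq2 size factors, upper-quartile scaling, at least 10 counts in every library and robust dispersion. *Itgb8*, *Hspg2*, *Fn1* and *Col4a5* were named after their values were seen. The causes were not tested.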

Other observations

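In the fit without batch 3 (4 libraries), 4 further basement membrane genes passed the test, named here after their values were seen. *Fn1*, encoding fibronectin, had a log2 fold change of −1.45 (edgeR adjusted p = 2.03e-17), *Hspg2*, encoding perlecan, −0.67 (adjusted p = 0.0066), and *Fras1*, encoding a protein of the embryonic basement membrane, −0.55 (adjusted p = 0.025), all higher in iASPP WT. With a single culture per condition in each batch, these p-values draw mainly on the spread estimated over all genes. The *Fn1* difference was −1.98 in batch 1 and −0.92 in batch 2. Fibroblasts also make fibronectin, and the part of the fibroblast markers, at 82.2 to 106 CPM in these libraries, was not tested. *Ecm1* was higher in iASPP KO (0.86, adjusted p = 0.0099). With all 3 batches none of the 4 passed: the log2 fold change of *Fras1* turned to 0.054 (adjusted p = 0.963), that of *Fn1* was −0.94 (adjusted p = 0.128) and that of *Ecm1* 0.50 (adjusted p = 0.443). *Hspg2* had 25.2, 18.1 and 29.6 CPM in iASPP KO and 42.9, 26.7 and 41.2 CPM in iASPP WT, with each iASPP-KO culture below its batch partner, and an adjusted p of 0.054.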
